A study of Mus musculus with 16 samples.

Results

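The genes described here encode the proteins of the mitochondrial ribosome. They were chosen by name from the count table: every mouse gene whose symbol is Mrpl or Mrps followed by a digit, pseudogene symbols ending in -ps left out, with a mean of at least 10 counts over the 8 input libraries. Of 46983 genes in the table, 78 had such a symbol and 77 met the minimum. The one left out was Mrpl53, which had 0 counts in every library; 695 of its 790 exonic bases are shared with Gm42688, a gene annotated on the same strand. The member nearest above the minimum was Mrpl23, with a mean of 174.1 counts. Of the 77 members, 50 encode proteins of the large subunit, counting Mrps18a and Mrps30, whose products sit there despite their names, and 26 encode proteins of the small subunit. The product of Mrps36 is now known as a component of the oxoglutarate dehydrogenase complex.

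Mitochondrial ribosomes translate the few mRNAs made from mitochondrial DNA, which encode core subunits of the respiratory chain and of ATP synthase. All of their proteins are encoded in the nucleus, made by cytosolic ribosomes and imported, and so their mRNAs carry a cap like other nuclear transcripts. Some of these proteins have a counterpart in bacterial ribosomes, and others were added during the evolution of mitochondria. RAM, encoded by Ramac, is the activating subunit of the cap methyltransferase RNMT, and the study asked which transcripts depend on it in ESCs.

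The cells were 46C mouse ESCs, a single line from strain 129Ola with a Sox1-GFP reporter, grown on gelatin with LIF. Either RAM siRNA or control siRNA without a target was transfected, cells were collected 48 hr later, and all cells received cycloheximide before lysis. Each siRNA had 4 replicates. Per the paper, the RAM siRNA replicates all received the same single siRNA. Effects of RAM loss and effects of that sequence thus cannot be told apart here. From each replicate 1 library was made from the cytoplasmic lysate (input) and another from pooled fractions 17 to 22 of a sucrose gradient (polysomes), which gives 4 groups of 4 libraries. Levels are CPM, counts scaled to library size with TMM over all 16 libraries. Polysome values are thus relative to the other polysome mRNAs, and a loss of polysomes as a whole would not be seen. The paper reports such a loss from its gradients, a significantly lower polysome to monosome ratio after RAM siRNA.

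Libraries held between 16647523 and 20147833 counts, of which the members took 0.389% to 0.453% in input and 0.392% to 0.849% in polysomes. Ramac was lower in every RAM siRNA library than in any control library of the same fraction, with 10.7 ± 0.606 CPM in control input and 3.004 ± 0.232 CPM after RAM siRNA (SD, n = 4 each; adjusted p = 7.24e-06, edgeR's quasi-likelihood test). In polysomes its log2 fold change was -2.52 (adjusted p = 0.128, with the replicate number as a factor 2.36e-05). Rnmt had 212 ± 20.96 CPM in control input and 274 ± 37.6 CPM after RAM siRNA (adjusted p = 0.0389). All 8 ESC markers were tested and 3 were lower (7 with that factor), with a summed level of 4537 to 4849 CPM in control input and 3804 to 4375 CPM after RAM siRNA. The summed levels of 6 neural, 6 fibroblast and 6 primitive endoderm markers, of which 5, 1 and 4 passed the filter on low counts and were tested, were 74.7 to 85.3, 8.02 to 9.64 and 12.0 to 12.6 CPM in control input. In RAM siRNA input they were 81.0 to 93.9, 9.13 to 11.3 and 12.3 to 15.4 CPM. Of the neural and fibroblast markers 0 passed the test. Of the 4 primitive endoderm markers 2 were higher, Gata6 (0.61) and Dab2 (0.55), while Sox17 (0.49) and Sox7 (-0.77 on the log2 scale) did not pass. With the factor Sox7 passed as well (adjusted p = 0.00113), and of the neural markers 1 was lower and 1 higher. The part of these markers in the results below was not tested, and in bulk libraries fewer cells of a type and less RNA per cell cannot be told apart.

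In control input, the levels of the members spanned a 36.0-fold range once divided by transcript length, from 4.24 to 153 CPM per kb with a median of 33.7. Mrpl42 was highest, with 153 ± 9.81 CPM per kb (SD, n = 4), followed by Mrpl2 with 111 ± 2.87 and Mrpl33 with 101 ± 5.11. The lowest were Mrpl48 with 4.24 ± 0.381, Mrpl57 with 7.03 ± 0.602 and Mrps26 with 7.08 ± 0.374 CPM per kb. Mrpl57 and Mrps26 did not differ beyond their spread. The length used was that of the principal annotated transcript, 4285 bases for Mrpl48 and 666 for Mrpl42, and another transcript in use would move these levels.

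The members lie on 17 mouse chromosomes, with 11 on chromosome 11, and only Mrps11 and Mrpl46 lie within 10 kb of each other. They start 412 bases apart on opposite strands of chromosome 7 of GRCm38 and overlap by 413 bases. Promoter windows in RefSeq (GRCm38.p6, 250 bases before to 50 after a start) were found for 68 members. The letters CCGGAAG, which ETS factors such as GABP can bind, stood on either strand in the windows of 36.8% of these members, compared with 9.93% of all genes and 20.6% of the tested genes in the same table. The letters AAGATGGC, the core of the YY1 motif, stood in 17.6% of members, 3.19% of all genes and 5.42% of tested genes. For GCATGCGC, the core of the NRF1 motif, the shares were 11.8%, 3.05% and 6.33%, and for TATAAA they were 7.35%, 15.7% and 8.32%. None of these 4 motifs contains another, and a match is only a description of the letters. The upstream sequences below belong to the members that changed in input and held 1 of the first 3 motifs before an annotated start, with the strand that of the gene. Capitals mark the match, CCGGAAG or its reverse complement CTTCCGG, and in Mrps11 the reverse complement of AAGATGGC. Mrpl48 has 4 windows, and its match stood before the start furthest downstream. The match in Mrps11 lies in an annotated exon.
Mrpl48, chr7:100583131-100583199, minus strand: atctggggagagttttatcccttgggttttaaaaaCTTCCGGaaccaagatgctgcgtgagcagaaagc
Mrpl58, chr11:115403700-115403751, plus strand: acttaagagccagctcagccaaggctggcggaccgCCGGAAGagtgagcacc
Mrps18c, chr5:100798599-100798626, plus strand: gtgaCTTCCGGcccgggaagcgcgggaa
Mrps22, chr9:98601680-98601725, minus strand: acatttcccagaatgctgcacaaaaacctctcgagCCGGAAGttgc
Mrps11, chr7:78783013-78783042, plus strand: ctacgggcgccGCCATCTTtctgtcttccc
Mrpl48, Mrpl58 and Mrps18c fell and Mrps22 rose in input, so the CCGGAAG letters stood before members that moved in either direction.

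The first question was whether the mRNAs of the mitochondrial ribosome changed in level after RAM siRNA. In input a few of them changed, in both directions, at shares near those of all tested genes. Of the 77 members, 6 (7.79%) fell and 4 (5.19%) rose after RAM siRNA, where 5.94% of all tested genes were lower and 6.95% higher. The threshold was 0.05 on the adjusted p (edgeR's quasi-likelihood test, Benjamini-Hochberg over 12805 genes). The lower genes were Mrpl48, Mrpl58, Mrpl44, Mrps18c, Mrpl30 and Mrpl1, and the higher genes were Mrps17, Mrpl4, Mrps22 and Mrps11. The groups did not overlap for 9 lower and 6 higher members, where this held for 8.62% and 9.39% of all tested genes. The median log2 fold change of the members was -0.03, compared with 0.00 for all tested genes, and 49 of the 77 lay below zero. Their summed level was 4052 ± 127.6 CPM in control input and 3974 ± 230.1 CPM after RAM siRNA (SD, n = 4 each), and the groups overlapped.

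**Figure D1:**
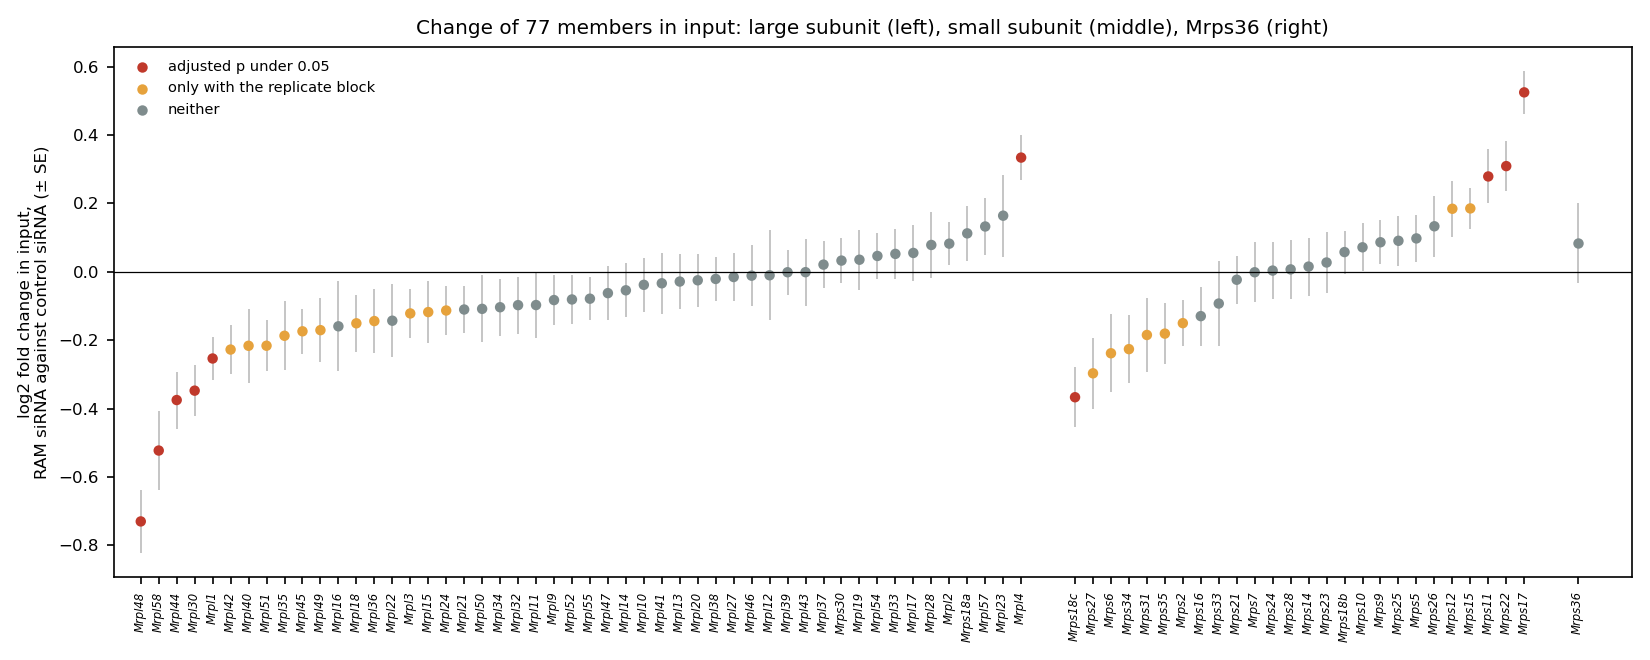
Log2 fold change of each of the 77 members in input, RAM siRNA against control siRNA (y axis, bars are standard errors of the fit, n = 4 libraries in each group), sorted within the large subunit, the small subunit and Mrps36 (x axis). The quartiles of the members lie at -0.15 and 0.05. The 10 past the threshold are at the ends of each subunit, from Mrpl48 at -0.73 to Mrps17 at 0.52.

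Same-numbered control and RAM siRNA libraries deviated from their group means together, and a fit in which each replicate number had its own term (a replicate block) called more members. With the block, 23 members were lower and 6 were higher, where 19.0% and 20.3% of all tested genes were. These included the 10 named above, each in the same direction. The share of members called lower with the block was 29.9% and the share called higher 7.79%. Among the additional lower members were Mrps27 (-0.30), Mrpl42 (-0.23), Mrpl51 (-0.22) and Mrpl40 (-0.22 on the log2 scale), with adjusted p of 0.000574, 0.000526, 0.000844 and 0.00240 (edgeR's quasi-likelihood test with the block). The additional higher members were Mrps12 (0.18, adjusted p = 0.00689) and Mrps15 (0.19, adjusted p = 0.00370). Mrps12 and Mrps15 encode small subunit proteins with bacterial counterparts, the first at the decoding centre.

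Mrpl48 fell most. It had 19.5, 15.8, 18.2 and 19.1 CPM in control replicates 1 to 4 and 10.8, 10.98, 10.9 and 11.2 CPM in the RAM siRNA replicates. The groups did not overlap, and the SD was 1.63 CPM among control and 0.153 CPM among RAM siRNA libraries. The log2 fold change was -0.73 (SE, the standard error of the fit, 0.09; adjusted p = 0.000492 in edgeR's quasi-likelihood test), which leaves 60.3% of the control level. Mrpl48 encodes a large subunit protein with no bacterial counterpart. Its annotated exons share 708 bases with Rab6a on the opposite strand. A gene was counted as holding letters if any of its annotated protein-coding transcripts had them in the 3′ UTR. Mrpl48 was counted for ACTATC, and whether the transcript in use has it was not checked. These letters were searched, on the transcript's strand, because genes that fell in these data had earlier been seen to hold them. They stood in the 3′ UTRs of 38.6% of the genes that were lower in RAM siRNA input, 8.96% of those that were higher and 16.04% of all 12067 tested genes with an annotated 3′ UTR. Of the members, 7 (9.09%) had them, and Mrpl48 was the 1 among the 6 that fell. The longer ACTATCA stood in 19.4% of the lower, 2.4% of the higher and 6.1% of all these genes. Of the members only Mrpl32 and Mrps25 had it, and 0 of the 6 that fell did. These shares were counted on the same data in which the letters had been seen, so they cannot serve as a test. The part of these letters in the change was not tested.

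Mrpl58, also known as Ict1, encodes a large subunit protein that can release stalled peptides from the ribosome. Its level was 26.3, 27.0, 24.1 and 31.9 CPM in control input and 17.8, 16.7, 18.2 and 23.5 CPM after RAM siRNA, again without overlap. It fell by 0.52 on the log2 scale (SE 0.12, adjusted p = 0.0127, edgeR's quasi-likelihood test). Mrpl44, whose product resembles a ribonuclease, had 38.8, 38.9, 36.9 and 40.04 CPM in control input and 28.2, 27.2, 29.4 and 34.8 CPM after RAM siRNA. Its fall was 0.38 on the log2 scale (SE 0.08, adjusted p = 0.0123). In both genes RAM siRNA replicate 4 was the highest of its group and still lay below every control library.

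Mrpl30 and Mrpl1, which encode large subunit proteins with bacterial counterparts, fell by 0.35 and 0.25 on the log2 scale. Mrpl30 went from 59.3 ± 2.94 to 46.7 ± 4.11 CPM and Mrpl1 from 61.0 ± 2.78 to 51.3 ± 1.65 CPM (SD, n = 4 each), with adjusted p of 0.0106 and 0.0220 (edgeR's quasi-likelihood test). Mrps18c went from 18.4 ± 1.23 to 14.3 ± 0.969 CPM, a log2 fold change of -0.37 (adjusted p = 0.0164). Mrps18c has 2 paralogs, which did not pass the test. Mrps18a had a log2 fold change of 0.11 and Mrps18b of 0.06 (adjusted p = 0.400 and 0.598). Mrps18c shares 250 exonic bases with Gm43511 on the same strand, and its reads are uncertain for that reason.

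Of the higher members, Mrps17 changed most. It encodes a small subunit protein with a bacterial counterpart. Its level was 54.8, 58.7, 56.9 and 58.3 CPM in control input and 85.2, 78.0, 81.6 and 84.8 CPM after RAM siRNA. All RAM siRNA libraries lay above all control libraries, by 0.52 on the log2 scale (SE 0.06, adjusted p = 0.000386, edgeR's quasi-likelihood test). A 3′ UTR annotated for Mrps17 contains TGCTCAA, letters searched because genes that rose had earlier been seen to hold them. They were found in 17.1% of the genes that were higher in RAM siRNA input, 6.38% of those that were lower and 9.44% of all tested genes with an annotated 3′ UTR. Of the members only Mrps17 and Mrps26 had them. The shares of all genes were again counted on the data in which the letters had been seen and cannot serve as a test. The shorter TGCTCA stood in 19 members (24.7%), among them 4 of the 6 that fell and 1 of the 4 that rose. The members' median log2 fold change was -0.12 with it and -0.02 without. Of all tested genes with an annotated 3′ UTR 39.3% had it, of the lower ones 37.6% and of the higher ones 49.1%. Mrps26 had a log2 fold change of 0.13 and did not pass the test (adjusted p = 0.369).

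Mrpl4 encodes a large subunit protein with a bacterial counterpart and was the only large subunit member to rise. It had 54.0, 57.5, 56.0 and 60.2 CPM in control input and 69.1, 70.6, 70.6 and 77.2 CPM after RAM siRNA (log2 fold change 0.33, SE 0.07, adjusted p = 0.00632). Mrps22, a small subunit protein without a bacterial counterpart, had 73.9, 67.9, 68.2 and 63.8 CPM in control input and 87.1, 79.9, 90.7 and 82.1 CPM after RAM siRNA (0.31, SE 0.07, adjusted p = 0.0154). Neither gene had overlapping groups. Mrps11 rose from 28.4 ± 0.695 to 34.6 ± 3.31 CPM (SD, n = 4 each), by 0.28 on the log2 scale (adjusted p = 0.0371, edgeR's quasi-likelihood test). It was not past the threshold with library-size scaling (adjusted p = 0.0687), with no filter (0.0967) or in replicates 1 and 2 alone (0.0831). Mrpl46, its neighbour across the shared start region, had 32.5 ± 2.75 and 32.3 ± 3.18 CPM, with a log2 fold change of -0.01 (adjusted p = 0.953). The pair shares 173 exonic bases on opposite strands, and the strand setting of the counting is not stated.

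**Figure D2:**
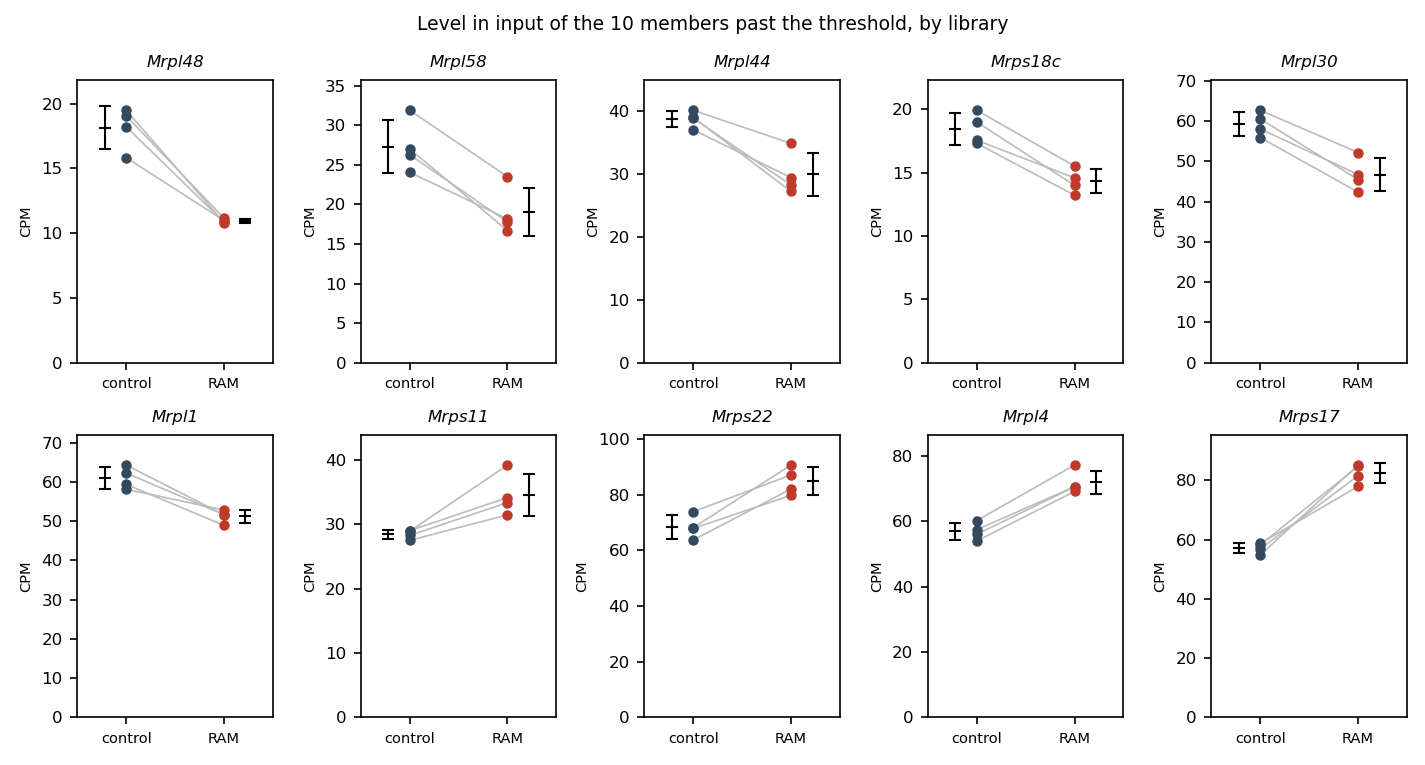
CPM in input (y axis, from 0) of the 10 members past the threshold, by control siRNA and RAM siRNA library (x axis, n = 4 each); grey lines join libraries with the same replicate number, and the marks beside the points are the mean and SD. In each panel all 4 lines run in the same direction, and the groups do not overlap. The 10 were chosen by their adjusted p in this same comparison.

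By subunit, 38 of 50 large subunit members and 11 of 26 small subunit members had a log2 fold change below zero in input. The medians were -0.08 and 0.01. Of the large subunit members 5 were lower and 1 was higher, and of the small subunit members 1 was lower and 3 were higher. With the replicate block the counts were 16 and 1 in the large and 7 and 5 in the small subunit (edgeR's quasi-likelihood test). By origin, 3 of 46 members with a bacterial counterpart were lower and 3 were higher, and of 30 without one 3 were lower and 1 was higher. With the block these counts were 11 and 5 with a counterpart and 12 and 1 without. The median log2 fold changes were -0.03 and -0.06. Whether subunits or origins differ was not tested.

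The calls in input leaned on the replicates unevenly. Each of the 10 genes kept its direction in replicates 1 and 2 alone and in replicates 3 and 4 alone. In replicates 1 and 2 alone 16 members were lower and 3 were higher, beside 1213 and 1416 of the 12805 tested genes. In replicates 3 and 4 alone 0 of these genes passed the test. Without RAM siRNA replicate 4, 16 members were lower and 4 were higher, beside 1149 and 1357 of all tested genes. Without RAM siRNA replicate 1 or control replicate 2, only 2 members were higher. Of all tested genes 484 and 551 were higher in these fits, compared with 890 in the full fit. Of the 8 fits that left out a library, Mrps11 passed in 3, Mrpl1 in 4 and Mrps18c and Mrps22 in 6 each.

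Other genes of the same machinery were counted in the same fit. Of 5 mitochondrial ribosomal proteins with other symbols 0 passed the test in input, and 0 had an unadjusted p under 0.05. Dap3, a GTP-binding protein of the small subunit, had 184 ± 14.6 CPM in control input and 203 ± 10.4 CPM after RAM siRNA, and Ptcd3, a pentatricopeptide repeat protein, had 285 ± 7.70 and 272 ± 15.0 CPM (SD, n = 4 each). With the block Dap3 was higher (0.14, adjusted p = 0.0160) and Gadd45gip1, a large subunit protein, was lower (-0.23, adjusted p = 0.00392, edgeR's quasi-likelihood test). Chchd1 (-0.06) and Aurkaip1 (0.02) did not pass either test. Of 12 mitochondrial translation factors 1 was higher, the elongation factor Tufm (168 ± 13.1 to 214 ± 6.09 CPM, log2 fold change 0.35, adjusted p = 0.00940). With the block 6 were higher and 1 was lower, and the initiation factor Mtif2 was among the former (0.24, adjusted p = 0.000151).

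Of 24 ribosome assembly factors 3 were lower and 1 was higher, and with the block 4 and 7. The lower ones were Ybey (-0.57, adjusted p = 0.0133), an endoribonuclease, Mtg1 (-0.46, adjusted p = 0.00575), a GTPase of large subunit assembly, and Tfb1m (-0.38, adjusted p = 0.0255), which methylates the rRNA of the small subunit. Eral1, an rRNA chaperone of the small subunit, was higher (0.29, adjusted p = 0.0105). Of 18 genes of mitochondrial transcription and RNA processing 1 was lower, the elongation factor Tefm (-0.53, adjusted p = 0.0180), and 1 was higher, the tRNA-processing enzyme Elac2 (0.37, adjusted p = 0.0117, all edgeR's quasi-likelihood test). With the block 1 was lower and 6 were higher. For comparison, of 78 cytosolic ribosomal protein genes 1 was lower and 0 were higher, and of 74 nuclear genes of the respiratory chain 3 were lower and 0 were higher. With the block the counts were 5 and 1 and 15 and 4. Both of these lists had a median of -0.03, like the members.

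The second question was how the same mRNAs changed in polysomes. None of the 77 members passed the test there without the replicate block, where 0.0234% of all tested genes did (3 genes, edgeR's quasi-likelihood test). DESeq2 called 0 members as well, and 4 had an unadjusted p under 0.05 in edgeR. With the block 4 members were lower and 2 were higher, compared with 4.97% and 9.68% of all tested genes. The groups did not overlap for 4 lower and 0 higher members, where this held for 4.38% and 2.18% of all tested genes. The median log2 fold change was 0.08 for the members and 0.06 for all genes. Of the cytosolic ribosomal protein and respiratory chain genes 0 passed the test either, and with the block 0 and 3 were higher.

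Mrpl48 had 34.6, 29.4, 36.1 and 45.0 CPM in control polysomes and 23.3, 14.3, 23.4 and 28.4 CPM after RAM siRNA. No RAM siRNA library reached a control library. Its log2 fold change was -0.65 (SE 0.24, adjusted p = 0.417, with the block 0.00148; edgeR's quasi-likelihood test). Mrps27, a small subunit protein of the pentatricopeptide repeat family, had 80.7, 79.5, 67.3 and 81.0 CPM in control polysomes and 60.1, 60.2, 48.6 and 61.3 CPM after RAM siRNA, also without overlap (-0.38, adjusted p = 0.426, with the block 0.0241). Mrpl44 went from 96.7 ± 7.90 to 73.0 ± 7.16 CPM (SD, n = 4 each; -0.36, adjusted p = 0.467, with the block 0.0320). Mrpl58 went from 51.8 ± 15.0 to 38.6 ± 15.9 CPM (-0.37, adjusted p = 0.899, with the block 0.0405), and its groups overlapped.

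Mrps17 had 28.4, 21.8, 36.8 and 57.3 CPM in control polysomes and 56.1, 28.2, 83.1 and 113 CPM after RAM siRNA. It was higher in all 4 pairs, by 1.01 on the log2 scale (SE 0.44, adjusted p = 0.534, with the block 0.000324), although RAM siRNA replicates 1 and 2 lay within the control range. Mrps22 had 204, 176, 192 and 151 CPM in control polysomes and 257, 232, 206 and 199 CPM after RAM siRNA, with overlap (0.35, adjusted p = 0.557, with the block 0.0416; edgeR's quasi-likelihood test). Mrps18c, which fell in input, had a log2 fold change of 0.02 here and was lower in 2 of 4 pairs.

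**Figure D3:**
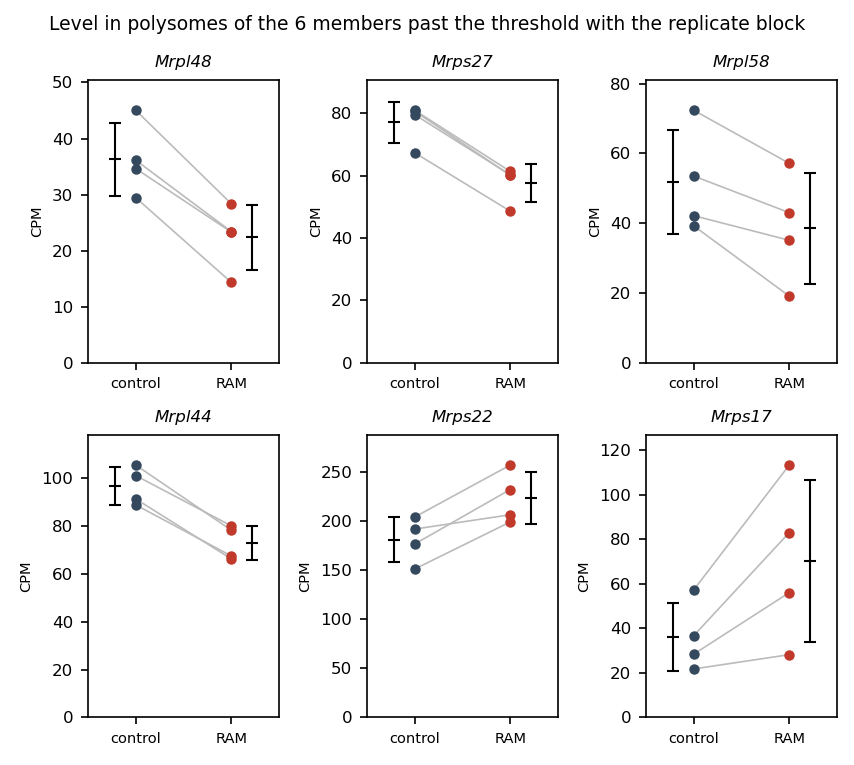
CPM in polysomes (y axis, from 0) of the 6 members past the threshold with the replicate block, by control siRNA and RAM siRNA library (x axis, n = 4 each), with grey lines between same-numbered libraries and the mean and SD beside the points. The lines fall for Mrpl48, Mrps27, Mrpl58 and Mrpl44 and rise for Mrps22 and Mrps17.

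Polysome libraries differed between replicates more than input libraries did. Over all tested genes the median absolute log2 difference between replicates 1 and 2 and replicates 3 and 4 was 0.30 in control and 0.46 in RAM siRNA polysomes, compared with 0.08 and 0.11 in input. For the members it was 0.53 and 0.83 in polysomes and 0.05 and 0.08 in input. Their summed level was 6491, 5571, 7172 and 7902 CPM in control replicates 1 to 4 and 6885, 4418, 7398 and 8355 CPM in the RAM siRNA replicates. Replicates 1 and 2 lay below replicates 3 and 4 in both groups. The median member was lower in replicates 1 and 2 than in 3 and 4 by 0.53 on the log2 scale in control and by 0.83 in RAM siRNA polysomes, where the median of all tested genes was 0.03 higher in both. RAM siRNA replicate 2 had the lowest summed level of the polysome libraries. In its pair the members' median log2 difference from control was -0.45, compared with 0.11, 0.13 and 0.12 in pairs 1, 3 and 4. The cytosolic ribosomal protein genes had a median of -0.48 in that pair and the respiratory chain genes -0.42. Without RAM siRNA replicate 2 the members' median rose from 0.08 to 0.29, and still 0 members passed the test.

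**Figure D4:**
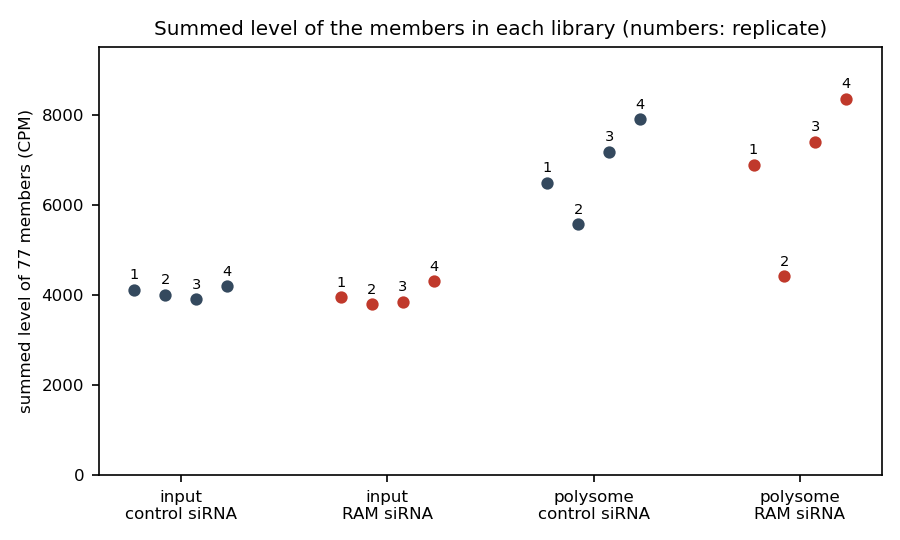
Summed CPM of the 77 members (y axis, from 0) in each of the 16 libraries, by group (x axis), with the replicate number above each point. Input libraries lie between 3796 and 4305 CPM, and polysome libraries between 4418 and 8355, lowest in replicate 2 of each polysome group.

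The third comparison was between polysomes and input in control cells, which shows how much of each mRNA ran with fractions 17 to 22 relative to the typical mRNA. Here the members stood apart from one another, though less widely than all tested genes. The quartiles of the log2 ratio of polysomes to input were 0.09 and 1.00 for the members and -0.71 and 0.61 for all tested genes. In polysomes 11 were lower than in input and 43 were higher, where 34.3% of all tested genes were lower and 33.1% were higher (edgeR's quasi-likelihood test). The median log2 ratio was 0.59 for the members and 0.00 for all genes, with a range from -2.59 to 1.54. It was 0.28 in replicates 1 and 2 and 0.86 in replicates 3 and 4, so its size followed the split between replicates. By pair 1 to 4 the median was 0.42, 0.24, 0.77 and 0.87 for the members. It was -0.44, -0.66, 0.08 and 0.28 for cytosolic ribosomal protein genes and 0.02, -0.19, 0.62 and 0.68 for respiratory chain genes. These lists split between replicates in the same direction.

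Mrpl33, which has the shortest coding sequence of the members (195 bases), had 48.7, 48.6, 51.0 and 45.1 CPM in input and 7.82, 6.81, 8.04 and 10.1 CPM in polysomes of control cells. That is a log2 ratio of -2.59 (SE 0.14, adjusted p = 1.28e-07). Mrpl33 shares 261 exonic bases with Gm43809 on the same strand. Mrps21 of the small subunit had 34.3, 37.2, 36.1 and 34.0 CPM in input and 7.45, 8.55, 11.2 and 13.6 CPM in polysomes (-1.83, adjusted p = 6.4e-06). Mrpl42 (-1.37), Mrps36 (-1.18) and Mrpl57 (-1.15) followed, with adjusted p of 5.83e-05, 0.00069 and 0.000294 (edgeR's quasi-likelihood test). Mrpl42 had the highest level per length of all members in input, yet in polysomes it had 40.1 ± 11.8 CPM compared with 102 ± 6.53 in input (SD, n = 4 each).

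At the other end, Mrpl38 had 129, 126, 123 and 120 CPM in input and 370, 346, 411 and 353 CPM in polysomes (log2 ratio 1.54, SE 0.11, adjusted p = 8.5e-07). Mrpl3, a large subunit protein with a bacterial counterpart, went from 118 ± 5.84 to 337 ± 43.9 CPM (1.48, adjusted p = 2.31e-06). Mrpl46 (1.43), Mrpl39 (1.37) and Mrps22 (1.36) came next. Mrps11, the neighbour of Mrpl46, did not pass the test (0.43, adjusted p = 0.0705). Of the paralogs, Mrps18b (0.91, adjusted p = 4.48e-05) passed the test and Mrps18a (0.32, adjusted p = 0.222) and Mrps18c (0.13, adjusted p = 0.599) did not.

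Across the 77 members the log2 ratio rose with coding length (Pearson r = 0.81, Spearman rho = 0.84, across genes, which are not independent replicates). It did so within each pair of libraries, with r of 0.87, 0.85, 0.79 and 0.71 in control replicates 1 to 4 and 0.81, 0.88, 0.64 and 0.64 in RAM siRNA replicates. By subunit, r was 0.83 over 50 large and 0.79 over 26 small subunit members. Of 23 members with under 450 coding bases 9 were lower in polysomes and 1 was higher, with a median of -0.28. Of 16 members with 450 to 600 bases 2 were lower and 8 were higher (median 0.44). Of 23 with 600 to 900 bases 0 were lower and 19 were higher (median 0.91), and all 15 members with 900 bases or more were higher (median 1.21). Over all tested genes the medians in these 4 classes were -0.72, 0.02, 0.38 and 0.02. The shares of all tested genes that were lower were 59.0%, 32.0%, 22.2% and 33.0%, and the shares that were higher were 6.05%, 29.5%, 47.6% and 34.0%. Pearson r over the 12125 genes with a coding length was -0.13, from 0.11 in control replicate 2 to -0.32 in control replicate 4. Over 78 cytosolic ribosomal protein genes r was 0.82, and over 74 respiratory chain genes it was 0.85. The members' change in polysomes after RAM siRNA had an r of -0.47 and a rho of -0.51 with coding length. The same r was -0.70 over the cytosolic ribosomal protein genes, -0.61 over the respiratory chain genes and 0.02 over all tested genes. It was not taken within each pair. The members' r of the log2 ratio with length was lower in RAM siRNA than in control replicates 1, 3 and 4 and higher in replicate 2.

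**Figure D5:**
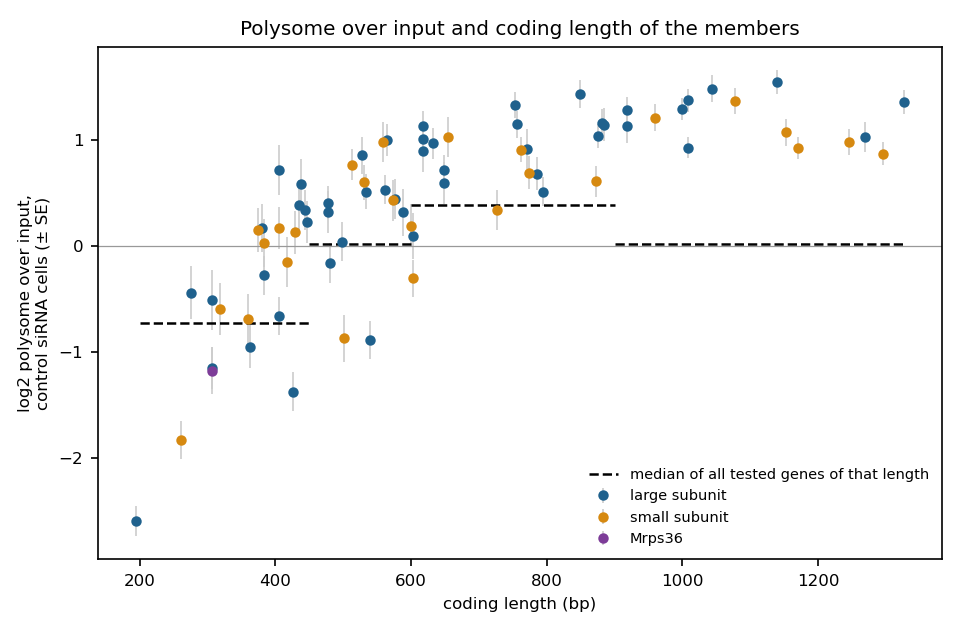
Log2 ratio of polysomes to input in control siRNA cells (y axis, bars are standard errors of the fit, n = 4 libraries in each fraction) against coding length in bases (x axis) for the 77 members, coloured by subunit; dashed lines are medians of all tested genes in the same 4 length classes. The points climb from -2.59 for Mrpl33 to between 0.87 and 1.54 for the members of at least 900 bases, above the dashed line in that class.

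The 5 mitochondrial ribosomal proteins with other symbols had a median of 0.77, with Dap3 at 1.37 and Chchd1 at -0.66. Of 12 translation factors 10 were higher and 0 were lower in polysomes (median 0.83), of 24 assembly factors 19 and 2 (median 0.90), and of 18 transcription and RNA processing genes 11 and 2 (median 0.61). Of 78 cytosolic ribosomal protein genes 20 were higher and 24 were lower (median -0.17), and of 74 respiratory chain genes 31 and 21 (median 0.31).

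The last comparison was the change of polysome loading, the change in polysomes less that in input. None of the 77 members passed the test without or with the replicate block, where 0% of all tested genes did, and none had an unadjusted p under 0.05 without it (edgeR's quasi-likelihood test). With a block within each fraction 0.0156% of all genes passed and 0 members did. DESeq2 called 0 members. The median change was 0.08, which was smaller than the spread of 0.25 (SD) between the medians of the 4 pairs. The values furthest from zero were those of Mrps33 (0.50, standard error 0.47), Mrps17 (0.43, standard error 0.45) and Mrps14 (0.43, standard error 0.47) above, and Mrpl24 (-0.21, standard error 0.25) and Mrpl19 (-0.16, standard error 0.18) below. The change of loading subtracts the change in input, so members chosen for a fall in input lean upward by that choice. Of the 6 members that fell in input, Mrps18c had a change of loading of 0.33 (standard error 0.42), the fifth highest of the 77. The others were at 0.03 (Mrpl48), 0.10 (Mrpl58), -0.03 (Mrpl44), 0.12 (Mrpl30) and 0.02 (Mrpl1), with standard errors of 0.24, 0.37, 0.16, 0.38 and 0.15.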

How the data were processed

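The authors deposited raw read counts per Ensembl gene for 16 libraries of ribosomal RNA-depleted, stranded RNA. Reads were mapped with STAR 2.5.1b to GRCm38 and counted with HTSeq, whose strand setting and annotation release are not given in the sources used here. Symbols, lengths and exons came from GENCODE M21 on GRCm38. Genes reaching 1 CPM in 10 or more of 16 libraries (12805, all 77 members among them) were tested with edgeR 4.0.16 (R 4.3.3), by the quasi-likelihood test with TMM scaling and Benjamini-Hochberg adjustment over all of them, with a threshold of 0.05. Comparisons used the 8 libraries concerned, and polysome loading used all 16 as an interaction. The scripts were tested on simulated counts.

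Groups are the fraction and siRNA named in the labels. Per the labels, input and polysome RNA came from the same extracts. The labels do not say what a shared number means between siRNAs, while the paper describes transfections on 4 independent occasions. Same-numbered libraries deviated together, with r of at least 0.32 in input and 0.54 in polysomes. Between fractions the lowest same-number r was 0.24 for control siRNA and 0.29 for RAM siRNA. The replicate number was therefore also used as a block. In input the block called 2433 genes lower and 2595 higher, compared with 761 and 890 without it. The counts with the block were the nearer to those the study reports. Libraries with different numbers had r of at most 0.11 in input but up to 0.57 in polysomes. In polysomes different numbers also deviated together within replicates 1 and 2 and within 3 and 4. The r of 0.54, for number 1, thus cannot tell a shared number from that split. The other same-number r in polysomes were 0.79 to 0.90. No replicates were duplicates within counting noise (chi-square per gene at least 3.23). The study calls its replicates biological.

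Alternatives were the block, RLE and library-size scaling, no filter, DESeq2 1.42.0, replicates 1 and 2 or 3 and 4 alone and each library left out. A block within each fraction for polysome loading was chosen after seeing the data. Members, gene lists and tests were chosen with earlier results of these data known. The genes named with values are, in each comparison, up to 10 members past the threshold in each direction and the 5 furthest from zero at each end, up to 10 with the smallest p under the block, the 3 highest and 3 lowest in level, the Mrps18 paralogs, the members at the count minimum, the 3 genes of smallest p in other lists, every mitochondrial ribosomal protein with another symbol, and Ramac and Rnmt. Log2 differences between replicates used a pseudocount of 0.5 CPM.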

Additional observations from a re-analysis of the deposited data

Results flagged for a closer look

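In 188 groups of 4 libraries, 7 held a library far from the other 3, where chance gives about 1 in 20. In input, RAM siRNA replicate 4 was the highest for Mrpl16 (35.6 CPM, next 23.8), Mrpl46 (37.1 CPM, next 30.9) and Mrps12 (45.8 CPM, next 39.7). Control replicate 4 was the lowest in input for Mrpl57 (17.7 CPM, next 20.7). In polysomes, RAM siRNA replicate 2 was the lowest for Mrps18b (98.3 CPM, next 179). Replicate 3 was the lowest for Mrps27 in both siRNA groups, with 67.3 CPM in control (next 79.5) and 48.6 CPM in RAM siRNA polysomes (next 60.1).

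Mrpl19 was higher after RAM siRNA in 4 of 4 pairs in input and lower in 4 of 4 pairs in polysomes. The difference, tested as the interaction of fraction and siRNA, was -0.16 on the log2 scale (standard error 0.18, unadjusted p = 0.377, edgeR's quasi-likelihood test) and did not pass the threshold.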

How the results depend on the processing

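With the replicate block, 23 members were lower in RAM siRNA input, and 4 were lower and 2 higher in RAM siRNA polysomes. In polysomes against input the block gave 12 lower and 44 higher. In replicates 1 and 2 only, 16 members were lower in RAM siRNA input, and in replicates 3 and 4 only 0 were lower and 0 higher. In polysomes against input of control cells, 23 members were lower in replicates 1 and 2 only and 7 in replicates 3 and 4 only, beside 4628 and 3747 of all tested genes, and the median in replicates 1 and 2 only was 0.28. There Mrps14 was at -0.46 and Mrps18c at -0.31, against 0.03 and 0.13 with all replicates. The cause was not tested. With 1 library left out, 4 to 16 members were lower and 2 to 4 higher in RAM siRNA input (median -0.09 to -0.02). In polysomes 0 to 0 were called (median -0.10 to 0.29), and for polysome loading 0 to 0 (median -0.10 to 0.30). In polysomes against input 9 to 16 were lower and 40 to 52 higher (median 0.41 to 0.73). DESeq2, RLE and library-size scaling and no filter kept every count of members within 1.5 times. Low levels limit the precision for Mrps33 (3.37 to 14.7 CPM) and Mrps36 (3.03 to 10.8 CPM) in polysomes.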

Other observations

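Of 13 protein-coding genes of mitochondrial DNA, whose mRNAs the mitochondrial ribosome translates, 7 passed the filter on low counts. This list was added after the values of the members were seen. In input 1 was higher after RAM siRNA, mt-Nd2, a subunit of complex I (log2 fold change 0.42, standard error 0.08, adjusted p = 0.00716, edgeR's quasi-likelihood test). With the replicate block 5 were higher and 0 were lower, and the median of the 7 was 0.20. In RAM siRNA polysomes 0 passed the test (median 0.29). All 7 were lower in control polysomes than in control input, by log2 ratios from -1.95 to -3.34. The share of the CPM held by all 13 genes was 2.15% to 2.51% in control input and 0.424% to 0.633% in control polysomes. Cytosolic ribosomes do not translate these mRNAs, and the source of their reads in the polysome fractions was not tested.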
